A study of Mus musculus with 6 samples.

Results

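The nucleoside transporter genes of 2 families, Slc29 and Slc28, were followed in R1 cells, a mouse embryonic stem cell line, with and without a stable vitamin C derivative. The genes were chosen by family membership after 1 array feature of Slc29a3 had been seen to rise, so what these features do between the groups is given as a description and was not tested. All 7 genes were measured: 4 Slc29 genes on 6 features and 3 Slc28 genes on 3 features, so 9 of the 23521 features with a single gene symbol, or 7 of 22180 genes. A further feature lists both Slc29a3 and Gm15466 and is shown apart. R1 is a male line from a 129X1 x 129S1 cross that the labels place in the inner cell mass, and it was grown on gelatin in serum with LIF. Untreated cells received no addition, and the other group received ascorbic acid 2-glucose (AA2G) at 0.74 mM (250 µg/ml) for 3 days. Each group has 3 arrays from cultures labelled as independent replicates. Values are log2 RMA expression values, and each difference is AA2G minus untreated with the standard error (SE) of a limma fit.

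Cells exchange nucleosides, the sugar-linked bases from which nucleotides are rebuilt by salvage, through these carriers. The Slc29 proteins are equilibrative: they let nucleosides pass down their gradient, across the plasma membrane or across the membranes of organelles. The Slc28 proteins are concentrative and couple the uptake of nucleosides to the sodium gradient. Among the Slc29 proteins, ENT3, the product of Slc29a3, stands apart as a carrier of lysosomes and other internal membranes, where it releases nucleosides from degraded nucleic acids.

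Vitamin C is a cofactor of the TET enzymes, which act on methylated CpG sites, so the number of CpG sites at each start site was counted. A pair of promoters from RefSeq (GRCm38.p6) is shown to set Slc29a3, to which the rising feature is annotated, beside a CpG-poor member of the other family. Each runs from 250 bases before to 50 bases after the start, with CpG sites in capitals. That of Slc29a3 lies at chr10:60752733-60753032 on the minus strand and that of Slc28a2 at chr2:122426185-122426484 on the plus strand.
Slc29a3: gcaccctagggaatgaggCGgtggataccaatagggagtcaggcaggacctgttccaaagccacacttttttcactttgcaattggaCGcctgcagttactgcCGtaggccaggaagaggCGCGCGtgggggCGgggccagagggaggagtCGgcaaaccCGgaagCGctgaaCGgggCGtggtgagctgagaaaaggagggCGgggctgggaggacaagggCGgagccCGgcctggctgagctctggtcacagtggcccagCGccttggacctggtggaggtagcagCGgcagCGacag
Slc28a2: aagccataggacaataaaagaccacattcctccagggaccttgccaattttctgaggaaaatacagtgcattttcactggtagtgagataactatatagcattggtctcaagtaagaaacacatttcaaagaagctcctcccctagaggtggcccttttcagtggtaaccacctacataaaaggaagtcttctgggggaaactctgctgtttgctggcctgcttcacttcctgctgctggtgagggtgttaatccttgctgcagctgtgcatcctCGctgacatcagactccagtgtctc

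The Slc29a3 promoter held 18 CpG sites, more than 70.3% of the 32851 promoters in the table, and the Slc28a2 promoter held 1. The other Slc28 promoters held 4 (Slc28a1) and 8 (Slc28a3), those of Slc29a2 and Slc29a4 held 20 and 22, and the 8 listed start sites of Slc29a1 held from 3 to 30. A pair of short motifs was searched on both strands, CACGTG, a core of E-box sites, and TCCCGC, a core of E2F sites; no window held both. Neither was found in the Slc29a3 window or in those of the 3 Slc28 genes. TCCCGC was found in the windows of Slc29a2 and Slc29a4 and in 3 of the 8 of Slc29a1, against 19.98% of all promoters, and CACGTG in 1 of the 8 of Slc29a1, against 7.15%. These counts describe letters only. The position of the rising feature is not known, so the Slc29a3 start site shown may not be that of the transcript it measures.

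The features of Slc29a3 differed from each other in what they showed. Its feature 17548260 read 4.98, 4.61 and 4.59 on the untreated arrays and 6.78, 6.70 and 6.78 on the AA2G arrays. Every AA2G array thus lay above every untreated array, with a gap of 1.72 between the nearest of them. The means were 4.72 ± 0.22 and 6.75 ± 0.05 (SD, n = 3 each), a difference of 2.03 ± 0.11 (SE) on the log2 scale, or 4.08-fold. Its untreated level cannot be told from background, because the table holds no detection calls, so the fold is uncertain. This was the rank 9 rise among all features tested.

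The other feature of Slc29a3 alone, 17241130, did not show that difference. It read 7.80, 7.82 and 7.82 without AA2G and 7.87, 7.79 and 7.83 with it, so the groups overlapped, and the difference was 0.01 ± 0.07. The feature that lists both Slc29a3 and Gm15466, 17548262, read 11.28, 11.21 and 11.22 against 11.19, 11.20 and 11.20. Its AA2G arrays lay just below the untreated ones, by 0.04 ± 0.07 in a fit that took in features without a single symbol. RefSeq lists a Gm15466 as a pseudogene on chromosome 3, under another gene identifier than the array annotation gives.

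**Figure D1:**
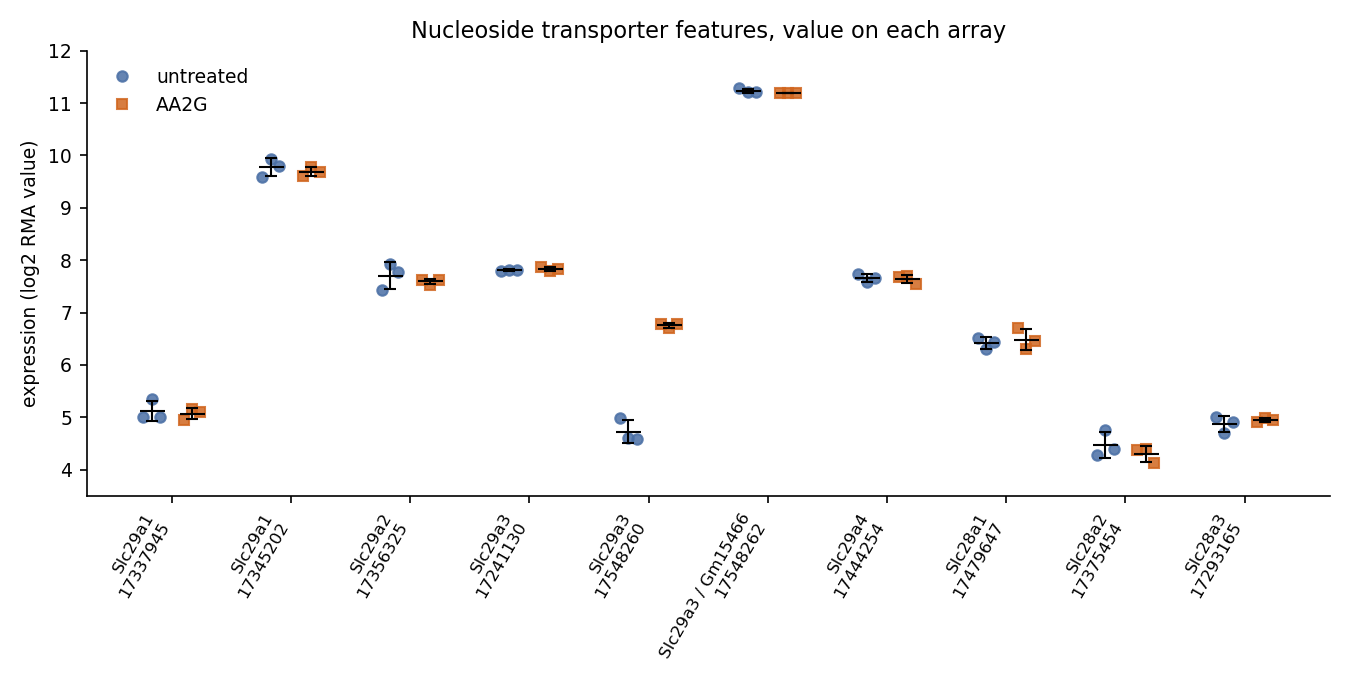
Log2 RMA value (vertical axis) of each nucleoside transporter feature (horizontal axis, symbol and feature identifier) on the 3 untreated arrays (blue circles) and the 3 AA2G arrays (orange squares), with bars for the mean ± SD. Feature 17548260 of Slc29a3 sits between 4.59 and 4.98 without AA2G and between 6.70 and 6.78 with it, and the groups of the other single-symbol features overlap.

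The identifiers of the array follow the genome: before the last stretch of the list, 98.9% of the 23040 features with a known chromosome lay on the same chromosome as the one before. Feature 17241130 of Slc29a3 stands in that order, between Cdh23 and Unc5b, and all 10 features around it belong to genes of the minus strand of chromosome 10, the strand of Slc29a3. Feature 17548260 stands in the last stretch, where 55.2% of 288 features shared the chromosome of the one before. The next identifier is that of 17548262, the feature that lists both Slc29a3 and Gm15466. Of the 10 nearest features with a single symbol and a known chromosome, 0 belong to chromosome 10, and the closest of these on either side are those of Rwdd3 on chromosome 3 and Tceal9 on the X chromosome. The sources used here do not say which transcript or position it measures, and its rise is reported as that of a feature annotated to Slc29a3.

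Slc29a1 encodes ENT1, a plasma membrane carrier of purine and pyrimidine nucleosides. Its feature 17345202 read 9.59, 9.94 and 9.80 without AA2G and 9.60, 9.77 and 9.69 with it. The groups overlapped, the arrays numbered 1 were the lowest in both, and the difference was -0.09 ± 0.10. Its second feature, 17337945, read 5.01, 5.34 and 5.00 against 4.95, 5.15 and 5.10, a difference of -0.04 ± 0.11. These features also differ in their place in the identifier order: 7 of the 10 features around 17345202 belong to genes listed on the minus strand, that of Slc29a1, and 0 to genes listed on the plus strand. Around 17337945, 8 belong to genes of the plus strand and 1 to a gene of the minus strand. The sources do not say which transcript 17337945 measures, so its values are those of a feature annotated to Slc29a1 and may not be those of the gene's own transcript.

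The other equilibrative carriers did not separate the groups either. Slc29a2 encodes ENT2, which also moves nucleobases, and its feature read 7.43, 7.92 and 7.77 without AA2G and 7.62, 7.53 and 7.63 with it. The untreated arrays spread more (SD 0.25) than the AA2G arrays (SD 0.05), and the difference was -0.12 ± 0.12. Slc29a4 encodes ENT4, also known as the plasma membrane monoamine transporter, which carries organic cations and adenosine. It read 7.73, 7.58 and 7.66 against 7.68, 7.69 and 7.55, a difference of -0.02 ± 0.08.

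Of the concentrative carriers, CNT1 (Slc28a1) prefers pyrimidine nucleosides, CNT2 (Slc28a2) purine nucleosides, and CNT3 (Slc28a3) takes both. Slc28a1 read 6.52, 6.30 and 6.44 without AA2G and 6.70, 6.30 and 6.45 with it, a difference of 0.07 ± 0.11. Slc28a2 read 4.28, 4.75 and 4.39 against 4.37, 4.40 and 4.12, a difference of -0.18 ± 0.13. Slc28a3 read 5.01, 4.70 and 4.91 against 4.90, 4.99 and 4.95, a difference of 0.08 ± 0.09. In all 3 genes the groups overlapped, and the means of Slc28a2 (4.39) and Slc28a3 (4.91) over the 6 arrays lay below 4.99, the percentile 40 of all features tested. A level that low was not separated from background here.

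Over the families, 1 of the 9 single-symbol features had a Benjamini-Hochberg adjusted p under 0.05 in the limma fit, where 0.761% of all features tested were called (179 of 23521) and 0.608% were called higher. The same 1 of 9 was the feature whose groups did not overlap, against 15.7% of all features. The families were picked with this feature in view, so nothing is read from these shares. The other 8 features had differences from -0.18 to 0.08, 3 above 0 and 5 below, with SE from 0.07 to 0.13. These signs were not stable: 5 of the 8 turned in at least 1 setting, and only those of Slc29a2, Slc28a2 and feature 17345202 of Slc29a1 kept theirs in every setting that gave a value. Without untreated replicate 2 the differences of these 3 were -0.01, -0.04 and -0.01, and without untreated replicate 1 they were -0.26, -0.28 and -0.18. The median was -0.02 over the 9 features and -0.01 over all features tested. On the brighter side of 4.99 there were 7 of the 9, and 17548260 was among them only through its AA2G arrays. With the settings tried, the difference of 17548260 stayed between 1.96 and 2.15, and it was not called with ordinary per-feature variances or, being the dimmer feature of its gene, kept when 1 feature per gene was used. In a bulk culture, a change in the number of cells with a transcript and a change in transcript per cell cannot be told apart.

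**Figure D2:**
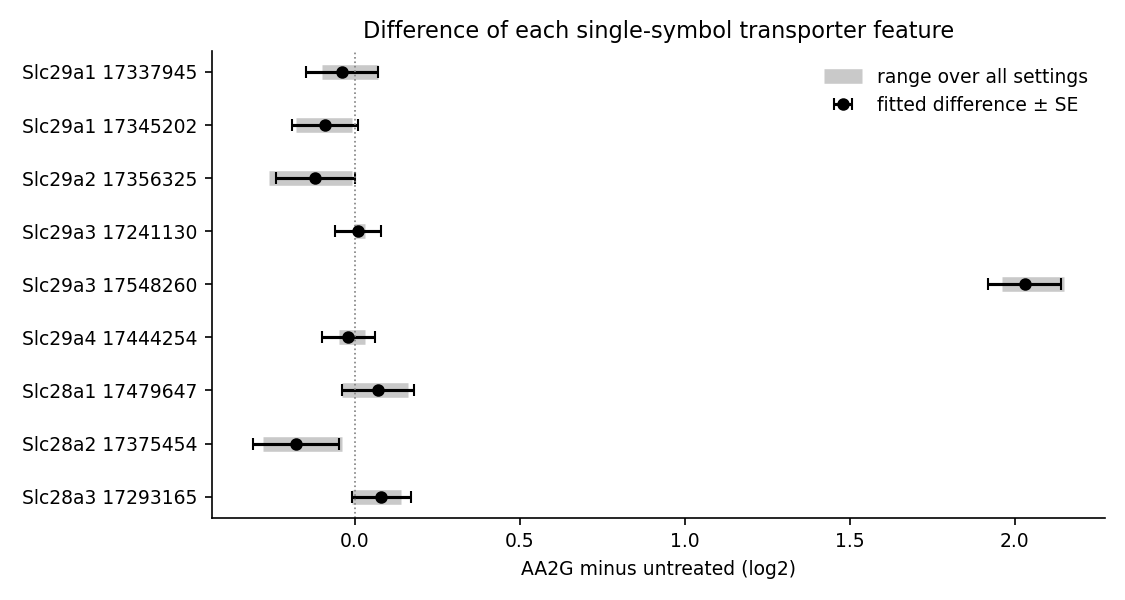
Difference between AA2G and untreated arrays (horizontal axis, log2) for the 9 single-symbol transporter features (vertical axis), as the fitted value ± SE (black) over the range of the fitted values in all settings (grey). Feature 17548260 of Slc29a3 lies at 2.03, and the other 8 lie between -0.18 and 0.08.

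No call was made among the genes beside Slc29a3 on chromosome 10. Of the 10 nearest measured protein-coding genes, 5 on each side, limma called 0 at an adjusted p under 0.05, and 0 had an unadjusted p under 0.05. Over all features tested these shares were 0.761% and 9.71%, so with 10 genes nothing is read from the counts. Their differences ran from -0.10 to 0.19 with a median of 0.05. The largest were those of Unc5b, a netrin receptor gene, at 0.19 ± 0.09 (limma adjusted p = 0.545), and Psap, the precursor of lysosomal saposins, at 0.18 ± 0.08 (limma adjusted p = 0.521). Pcbd1, a pterin enzyme gene, was at 0.11 ± 0.10, Sgpl1, the sphingosine phosphate lyase gene, at 0.10 ± 0.09, Vsir, an immune checkpoint gene, at -0.10 ± 0.09, and Gm17455 at 0.06 ± 0.09. Cdh23 (0.04 ± 0.07), Chst3 (0.04 ± 0.10), Adamts14 (0.01 ± 0.09, its second feature 0.03) and Tbata (-0.01 ± 0.08) lay nearer to 0. The signs of Chst3, Gm17455, Tbata and Adamts14 turned in some settings.

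Of the 70 neighbours of all 7 genes, 1 was called, where 0.761% of all features tested were called, so nothing is read from the count. The called neighbour was Terb2, a gene of the complex that holds telomeres to the nuclear envelope in meiosis. Terb2 is the fifth measured gene before Slc28a2 on chromosome 2. It read 4.63, 4.53 and 4.90 without AA2G and 5.46, 5.67 and 5.55 with it, so the groups did not overlap. It rose by 0.87 ± 0.11, or 1.83-fold (limma adjusted p = 0.0123). Its untreated mean of 4.69 was not separated from background here, so the fold is uncertain. The call was lost in a fit of all features (0.0531), with ordinary variances (0.216), and without untreated replicate 1 (0.0609), AA2G replicate 2 (0.0606) or AA2G replicate 3 (0.0631). Nearer to Slc28a2, its close relative Slc28a2b was at 0.01 ± 0.13 and the oxidase gene Duox1 at 0.22 ± 0.15. The uncalled neighbour of Slc28a2 with the smallest p was Slc30a4, at -0.27 ± 0.07 (limma adjusted p = 0.178). The adaptor gene Shf was at -0.31 ± 0.11 (limma adjusted p = 0.354). Slc28a2 and Slc28a2b are close paralogues, so the split of their signal between these features is uncertain.

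**Figure D3:**
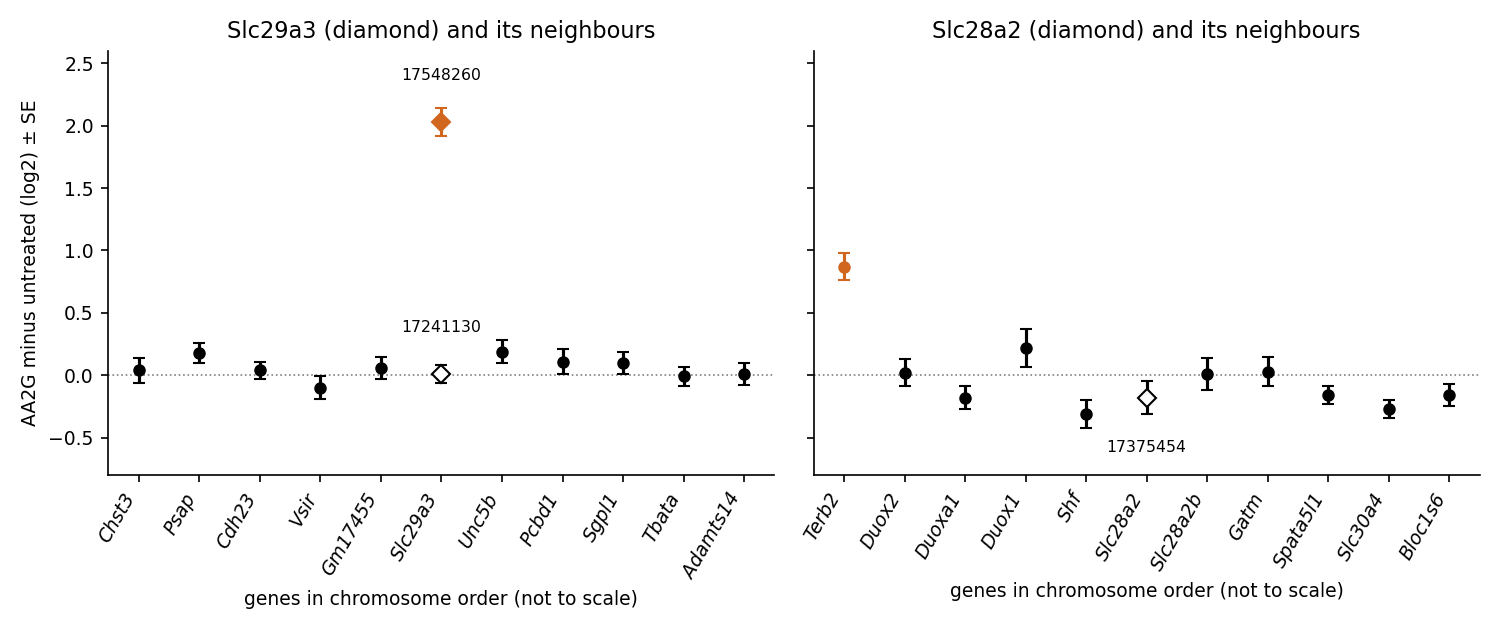
Difference between AA2G and untreated arrays (vertical axis, log2, ± SE) for Slc29a3 and Slc28a2 (diamonds) and the 5 measured protein-coding genes on each side (circles), in chromosome order on the horizontal axis; orange marks an adjusted p under 0.05. Terb2 at 0.87 is the called neighbour; feature 17548260 at 2.03 is drawn at Slc29a3 by its annotation, and its position is not known.

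Genes that make, salvage and break down nucleotides, other carriers and lysosomal genes were taken as the surroundings of the transporters. These 5 lists held 112 genes, of which 94 were measured on 101 features. In limma 0 features were called, where 0.761% of all features tested were called. An unadjusted p under 0.05 was reached by 10 on the higher and 5 on the lower side, against 9.71% of all features tested in either direction. Higher and lower, these were 5 and 1 of 23 lysosomal features, 3 and 2 of 26 for salvage, and 2 and 1 of 11 for other carriers. They were 0 and 1 of 16 for breakdown, and 0 of 25 for de novo synthesis. No list was tested as a set. Among 25 salvage genes the median was -0.01, with 12 values above 0. Uprt, a uracil phosphoribosyltransferase homologue, was at -0.38 ± 0.10 (limma adjusted p = 0.195), Dctd, the deoxycytidylate deaminase gene, at 0.25 ± 0.07, Uckl1, a uridine-cytidine kinase homologue, at -0.27 ± 0.09, and Mtap, which recycles methylthioadenosine, at 0.19 ± 0.07. Among 21 genes of de novo synthesis the median was -0.06, with 5 values above 0. Cad, which starts pyrimidine synthesis, was at -0.15 ± 0.07, Dut, the dUTPase gene, at -0.14 ± 0.07, Gmps, the GMP synthetase gene, at -0.14 ± 0.07, and Gart, of purine synthesis, at 0.20 ± 0.09 at its feature with the smallest p. That Gart feature averaged 4.64 over the 6 arrays, a level not separated from background here. Medians and counts above 0 use the brightest feature of each gene, where the highest difference for de novo synthesis was 0.14. The smallest adjusted p of that list's brightest features was 0.550 in limma.

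Among 15 genes of nucleotide breakdown and adenosine signalling the median was 0.00, and the largest difference was that of Enpp3, a cell surface enzyme that hydrolyses extracellular nucleotides. It averaged 9.27 ± 0.18 without AA2G and 8.29 ± 0.42 with it (SD, n = 3 each), a difference of -0.98 ± 0.20 whose groups did not overlap (limma adjusted p = 0.0907). It passed with a trended robust prior (0.0433), with array weights (0.0205), with the replicate number as a block (0.0381), and without AA2G replicate 1 (0.0270), where the difference was -1.20. The ectonucleotidase genes Entpd1 (-0.13 ± 0.07) and Entpd3 (0.21 ± 0.14) and the mitochondrial nucleotidase gene Nt5m (-0.08 ± 0.07) followed by p. The means of Entpd1 (4.36) and Entpd3 (4.45) over the 6 arrays were not separated from background here.

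Among 11 other carriers of nucleosides, nucleobases, nucleotides or organic cations the median was -0.01. Slc47a1, a proton-coupled exporter of organic cations, was at -0.52 ± 0.14 (limma adjusted p = 0.198), Abcc5, an exporter of cyclic nucleotides, at 0.27 ± 0.09 (limma adjusted p = 0.313), Slc17a9, which fills vesicles with ATP, at 0.24 ± 0.10, and Slc43a3, a purine nucleobase carrier, at 0.27 ± 0.15. Among 22 lysosomal genes, listed because ENT3 works in that membrane, the median was 0.10 and 16 values were above 0. Unc93b1, which escorts nucleic acid sensing Toll-like receptors, was at -0.39 ± 0.09 (limma adjusted p = 0.123) and passed with array weights (0.0483). The membrane genes Lamp1 and Cd63 were at 0.22 ± 0.07 and 0.23 ± 0.08, and Hexa, a hexosaminidase gene, at 0.63 ± 0.21. The mean of the lysosomal list per array was 7.25 to 7.44 without AA2G and 7.43 to 7.49 with it, so the groups overlapped. They also overlapped in the array means of the salvage and other carrier lists. In those of de novo synthesis and breakdown they did not, and the AA2G arrays were lower. For de novo synthesis the lowest untreated array was at 8.97 and the highest AA2G array at 8.95. For breakdown these were at 6.37 and 6.35. The breakdown list includes Enpp3, at -0.98, and the list's median was 0.00, with 8 of 15 genes above 0. Its array means were not computed without Enpp3, so the gap cannot be read as a shift of the whole list. Neither gap was tested. Leaving out 1 array moved several of the uncalled pathway differences. Hexa was at 0.37 without untreated replicate 2, Slc43a3 at 0.14 without AA2G replicate 2, and Entpd3 and Uckl1 at 0.06 and -0.17 without untreated replicate 1.

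The features whose 6 values lay nearest to those of 17548260, once each was centred on its untreated mean are given next. The measure was the Euclidean distance over the 6 arrays, 1 feature per gene, which the difference between the groups dominates. Fmr1nb was nearest (distance 0.28, difference 2.12 ± 0.07), followed by Morc1, a chromatin gene needed in spermatogenesis (0.36, 1.93 ± 0.10). Usp26, a deubiquitinase gene of the testis, was at a distance of 0.54, the germ cell homeobox gene Rhox13 at 0.55 and the meiotic gene Rec114 at 0.56. Rpl10l (0.64), Hormad1 (0.65), Dazl (0.69), the zinc finger gene Zfp981 (0.73) and Arl14epl (0.75) completed the 10. Fmr1nb, Usp26 and Rhox13 lie on the X chromosome. All were picked for their likeness to a change, so the likeness is a description.

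**Figure D4:**
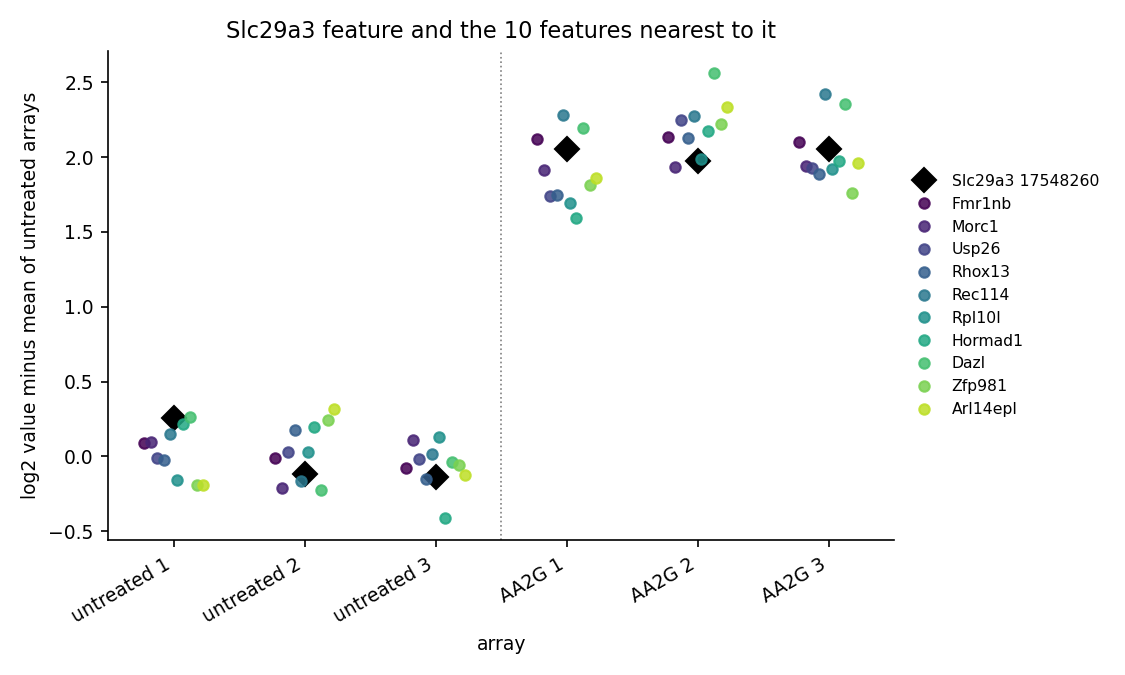
Log2 value minus the mean of the untreated arrays (vertical axis) on each array (horizontal axis) for feature 17548260 of Slc29a3 (black diamonds) and the 10 features nearest to it (coloured circles, 1 gene each). On every AA2G array the diamonds lie within the range of the 10 other features, whose differences run from 1.87 (Rpl10l) to 2.37 (Dazl).

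Most of the 10 embryonic stem cell markers were bright in both groups, with Nanog at 11.3 ± 0.03 and 11.2 ± 0.04, Sox2 at 11.2 ± 0.17 and 11.1 ± 0.05, and Pou5f1 at 7.64 ± 0.02 and 7.47 ± 0.01 (SD, n = 3 each). Dppa5a was dim, at 5.15 ± 0.09 and 5.08 ± 0.10. Of these 10 markers limma called 0, and an unadjusted p under 0.05 was reached by 3, all lower. The share of all features tested with such a p, in either direction, was 9.71%. The 3 were Klf4 (-0.31 ± 0.07, limma adjusted p = 0.127), Nanog (-0.17 ± 0.07) and Pou5f1 (-0.16 ± 0.07). Of the 10 differences, 2 were above 0. The mean of this list per array was 9.66 to 9.68 without AA2G and 9.56 to 9.60 with it, so the groups did not overlap. Among single features, the groups did not overlap in 15.7% of all tested. The gap of this list mean was not tested. The 6 lists of markers of other cell types (primitive endoderm, trophoblast, mesoderm, neuroectoderm, fibroblasts, and macrophages and blood cells) held 33 measured genes and 0 limma calls, with 1 lower at an unadjusted p under 0.05. The mean of each such list per array ran from 5.33 to 5.80 without AA2G and from 5.28 to 5.77 with it. Single genes of these lists were brighter, with Cd68 at 8.72 ± 0.51 and 8.94 ± 0.47, Tfap2c at 7.81 ± 0.13 and 7.83 ± 0.06, and Tubb3 at 7.77 ± 0.19 and 7.85 ± 0.18. Their part in the differences above was not tested. Array medians lay between 5.06 and 5.10.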

How the data were processed

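The deposited log2 values were made by the authors with RMA. The submitters' processing notes name Affymetrix Expression Console as the program. Their versions and filters and the array's genome build are not given here. Quantile normalization in RMA hides changes in total RNA. The array is a Mouse Gene 2.0 ST, per the labels, and precision is limited by how many arrays there are. Of 41345 features, 23521 have 1 symbol in the platform annotation, 1814 several and 16010 none listed. RefSeq (GRCm38.p6), matched by Entrez identifier for 23328 of the first, gave chromosomes, strands and gene order.

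limma 3.58.1 in R 4.3.3 (lmFit, eBayes, two-sided, no covariate) was fitted over the 23521 features and all 6 arrays, with Benjamini-Hochberg adjustment, and tested on simulated data. With 3 arrays a side, exact permutation p-values cannot fall below 0.1. The fit's p-values reflect only how far these cultures vary. Named genes were every feature of the families, up to 4 genes per pathway list by smallest p, all neighbours of Slc29a3 and called neighbours of the others, and the 10 features nearest to the largest change, leaving out predicted, Rik, small RNA and receptor cluster genes. A few further neighbours of Slc28a2 were named after their values were seen. The last stretch of identifiers starts where, of the next 50 features, under 60% share the chromosome of the one before. Members and lists were chosen with earlier results of these data known. The comparison of protein sequences was not run.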

Additional observations from a re-analysis of the deposited data

How the results depend on the processing

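The count of called features, 179, became 277 with a trended robust prior, 496 with array weights and 13 with ordinary variances, and ran from 64 (without untreated replicate 3) to 131 with single arrays left out. The count of called transporter features, 1, became 0 with 1 feature per gene and 0 with ordinary variances, and stayed at 1 in each fit with an array left out. The count in the pathway lists, 0, became 1 with a trended robust prior, 2 with array weights and 1 with the replicate block, and ran from 0 to 1 with single arrays left out. The count among neighbours, 1, became 0 with all features of the table and 0 with ordinary variances, and ran from 0 to 1 with single arrays left out. Repeating the quantile normalization, shifting arrays to a common median and keeping brighter features only were also tried.

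Among the neighbours of Slc29a3, array weights gave -0.02 for Chst3, -0.01 for Gm17455 and 0.06 for Tbata, turning their signs. With single arrays left out, Chst3 ran from -0.06 to 0.11, Gm17455 from -0.02 to 0.11, Tbata from -0.05 to 0.05 and Adamts14 from -0.05 to 0.08. The cause was not tested. With ordinary variances 8 of the 10 features nearest to 17548260 were not called (adjusted p from 0.0587 to 0.207).

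The labels state no covariate, so the replicate numbers were not taken as pairs in the main fit. Deviations of same-numbered arrays from their group means correlated at 0.23, 0.22 and 0.02 across features, which are not independent replicates. An effect shared by same-numbered arrays was not tested. With the replicate block 155 features were called.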

Other observations

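Of 1082 genes with 2 or more single-symbol features, 11, Slc29a3 among them, had a called feature in limma, and in 0 of these were all features called. A feature that was not called need not differ from one that was. The genes named here were chosen after their values were seen. Pop1 had -0.98 and -0.04, the meiotic kinase gene Aurkc 0.49 and -0.07, and the cilia gene Hydin 0.51 and -0.02. The features of 1700029P11Rik lay closer together, at 0.73 and 0.55, as did those of Sfi1, at -0.69 and -0.35. The 9 features of Mir669k were all higher: 3 were called, at 0.73 to 1.10, and the 6 that were not lay at 0.90 to 1.21.

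In the last stretch of the identifier order, limma called 2 of 327 features, both higher (0.612%, where 0.763% of the 23194 features before it were called). These were 17548260 of Slc29a3 and a feature of the predicted gene Gm13777, which rose from 6.65 ± 0.07 to 7.28 ± 0.12 (SD, n = 3 each), by 0.63 ± 0.09 (SE; limma adjusted p = 0.0174).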
